A study of Mus musculus with 10 samples.

Results

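The 10 genes described here encode receptor chains for IL-10, IL-6, IL-27, IL-12 and the interferons: Il10ra, Il10rb, Il6ra, Il6st, Il27ra, Il12rb1, Il12rb2, Ifngr1, Ifngr2 and Ifnar1. They were taken by symbol from the 48321 gene symbols in the count tables, of which 28262 had a count in any library, and all 10 were among the 13796 genes that passed the filter on low counts. The libraries were RNA-seq of CD4+ T cells from the spleens of young adult C57BL/6 mice, sorted on GFP, which reports Foxp3, and on surface CD25. Of the 5 groups of 2 libraries, 2 came from WT mice (FoxP3+CD25+ Tregs and FoxP3-CD25- non-Tregs) and 3 from Satb1 F/F:Thpok-cre mice, named KO (FoxP3+CD25+, FoxP3+CD25- and FoxP3-CD25-); a WT FoxP3+CD25- group was not analysed here. Thpok-cre deletes the floxed gene in cells committed to the CD4 lineage, Tregs and non-Tregs alike, so no group isolates a loss in Tregs alone. Libraries numbered 1 and 2 within a genotype were taken to come from 2 mice, and equal numbers to mark 1 mouse, an inference from the labels. Sex-linked genes showed different animals for WT only. The labels give no further genotype for WT, and whether its mice carried floxed Satb1 without Cre is not given in the sources used here.

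Libraries held 6094952 to 12410064 counts on genes, and 3 counts, the most that a count of 0 allows, corresponded to 0.2485 to 0.4962 CPM, a gene's share of the library after TMM scaling (this floor covers counting error only). Satb1, the gene targeted in KO mice, had 379 and 478 CPM in WT FoxP3+CD25+, 598 and 534 in KO FoxP3+CD25+, 818 and 881 in WT FoxP3-CD25-, 841 and 682 in KO FoxP3-CD25-, and 1186 and 993 in KO FoxP3+CD25- cells. The gene total was therefore not lower in any KO group than in the WT group of the same sort beyond the spread of the libraries, and counts per gene do not resolve the deleted exons, so this reading does not check the genotype labels. Foxp3 had 318 to 739 CPM in the 6 FoxP3+ libraries and 18.0 to 38.9 CPM in the 4 FoxP3- libraries. Il2ra, which encodes CD25, had 627 to 760 CPM in the CD25+ libraries and 1.55 to 16.8 CPM in the CD25- libraries. The sums of 6 T-cell markers were 3246 to 4327 CPM. Those of 7 B-cell markers were 5.58 to 34.9 CPM, of 8 myeloid markers 13.9 to 21.5 CPM, of 2 CD8 markers 9.38 to 16.6 CPM, of 3 NK-cell markers 0.128 to 8.17 CPM and of 3 erythroid markers 0.745 to 2.30 CPM. The B-cell sum was lowest in KO FoxP3+CD25- cells (7.27 and 5.58 CPM), where 2 of the 7 markers were at 0. The sum of 6 genes induced by handling was higher in FoxP3+CD25+ (2069 to 2773 CPM) than in the other libraries (1449 to 1663 CPM). Of the 6, only Dusp1 had an FDR under 0.05 in a comparison, with 664 to 1064 CPM in FoxP3+CD25+ and 252 to 450 CPM in the other libraries. Hspa1a and Hspa1b did not follow the sum. They were highest in the libraries of KO mouse 2, at 12.7 to 17.6 and 25.8 to 33.6 CPM, against at most 2.48 and 11.2 CPM in the others. The part of these genes in the receptor results was not tested. Xist had 14487 and 16362 counts in the libraries of WT mouse 1 and 0 to 4 counts in all others, so sex was not balanced between the genotypes.

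Most of these receptors pair a chain that binds the cytokine with a chain that many cells share, and the pair brings Janus kinases together to phosphorylate STAT proteins. IL-10 binds IL10RA, whose partner IL10RB also serves the receptors of IL-22 and the lambda interferons, and the signal runs mainly through STAT3. IL-6 binds IL6RA, and IL-27 binds IL27RA, and both complexes signal through gp130, the product of Il6st. IL12RB1 binds the p40 subunit shared by IL-12 and IL-23, and with IL12RB2 it forms the IL-12 receptor, which activates STAT4 in T helper 1 cells. IFNGR1 and IFNGR2 form the interferon-gamma receptor, and IFNAR1 with IFNAR2 forms the receptor of the type I interferons. IL-10 receptor signals help Tregs to restrain inflammation, IL-6 and IL-12 favour effector differentiation over the Treg state, and interferon-gamma can weaken Treg suppression.

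Of the 10 genes, 6 had an upstream window in the RefSeq table used here (build GRCm38.p6): Il6ra, Il12rb2, Ifngr1, Il6st, Ifnar1 and Ifngr2. The 250 bases before the annotated start are shown for the pair of interferon-gamma receptor genes and for Il6ra, whose counts were higher in KO FoxP3+CD25- than in WT FoxP3+CD25+ cells, and for Il12rb2, whose window held the only match to a searched motif, in capitals.
Ifngr1, chr10:19591699-19591948, strand +: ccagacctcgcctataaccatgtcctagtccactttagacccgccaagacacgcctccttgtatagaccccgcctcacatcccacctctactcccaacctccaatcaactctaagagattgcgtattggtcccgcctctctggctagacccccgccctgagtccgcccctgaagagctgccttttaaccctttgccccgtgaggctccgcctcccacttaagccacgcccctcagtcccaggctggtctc
Ifngr2, chr16:91546809-91547058, strand +: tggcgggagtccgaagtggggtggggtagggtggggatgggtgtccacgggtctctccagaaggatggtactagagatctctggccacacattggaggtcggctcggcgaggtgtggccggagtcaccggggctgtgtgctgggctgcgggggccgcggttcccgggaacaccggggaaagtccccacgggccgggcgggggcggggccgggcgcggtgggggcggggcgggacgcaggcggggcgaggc
Il6ra, chr3:89913197-89913446, strand -: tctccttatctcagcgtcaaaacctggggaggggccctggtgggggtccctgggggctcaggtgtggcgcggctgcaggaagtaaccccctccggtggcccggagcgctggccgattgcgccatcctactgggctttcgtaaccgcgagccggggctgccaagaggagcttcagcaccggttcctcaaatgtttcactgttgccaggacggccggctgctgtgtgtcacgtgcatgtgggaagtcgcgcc
Il12rb2, chr6:67376189-67376438, strand -: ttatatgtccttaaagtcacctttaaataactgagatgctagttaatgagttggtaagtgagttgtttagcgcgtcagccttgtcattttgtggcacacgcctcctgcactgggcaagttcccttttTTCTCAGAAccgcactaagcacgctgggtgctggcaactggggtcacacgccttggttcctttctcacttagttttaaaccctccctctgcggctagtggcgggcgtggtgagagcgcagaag
The motifs searched on both strands were a forkhead core TGTTTAC, a STAT site TTCNNNGAA, an AP-1 site TGACTCA and a RUNX site TGTGGTT; no match overlapped another. They occurred in 3.17%, 7.02%, 4.46% and 4.4% of all 32851 windows of this length. The match in Il12rb2 is of the STAT letters. The windows of Ifngr1, Ifngr2 and Il6ra held none of these letters, and their GC contents were 59.2%, 74% and 65.2%, against 50% for Il12rb2 and a median of 52.4% over all windows. The Ifngr2 window was the most GC-rich of the 6.

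The members called in each comparison, at FDR under 0.05 in edgeR's quasi-likelihood test with Benjamini-Hochberg adjustment over 13796 genes, were as follows. In WT Tregs (FoxP3+CD25+) against WT non-Tregs (FoxP3-CD25-) 5 of 10 members were called (4 higher, 1 lower), beside 10.9% of all genes tested, with a median log2 fold change of 0.29 over the members and -0.02 over all genes. In KO Tregs against KO non-Tregs 6 of 10 were called (5 higher, 1 lower), beside 6.34% of all genes, with medians of 0.43 and -0.0012. The KO FoxP3+CD25- cells differed from KO non-Tregs in 2 members (1 higher, 1 lower; 1.67% of all genes) and from KO Tregs in 3 (1 higher, 2 lower; 7.02% of all genes). From WT non-Tregs they differed in 2 members, both higher (0.768% of all genes), and from WT Tregs in 6 (4 higher, 2 lower, beside 11.2% of all genes). No WT group here had the FoxP3+CD25- sort. Genotype and sort therefore differ together wherever KO FoxP3+CD25- cells are set against a WT group, and the 2 cannot be told apart. Non-Tregs of KO and WT mice differed in 1 member (0.145% of all genes). Tregs of KO and WT mice differed in none of the 10 (0.00725% of all genes, which is 1 gene), where 2 members had an unadjusted p under 0.05, and DESeq2 and the edgeR likelihood ratio test also called none. The change in the Treg against non-Treg difference between genotypes was called for none of the 10 by these 3 tests (0% of all genes by the quasi-likelihood test), and 3 members had an unadjusted p under 0.05. Comparisons that name the same group share its libraries, so their values are given side by side. With 2 libraries a group, an exact permutation test of a single gene cannot go below p = 0.333, and every p-value here comes from the model over all genes.

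**Figure D1:**
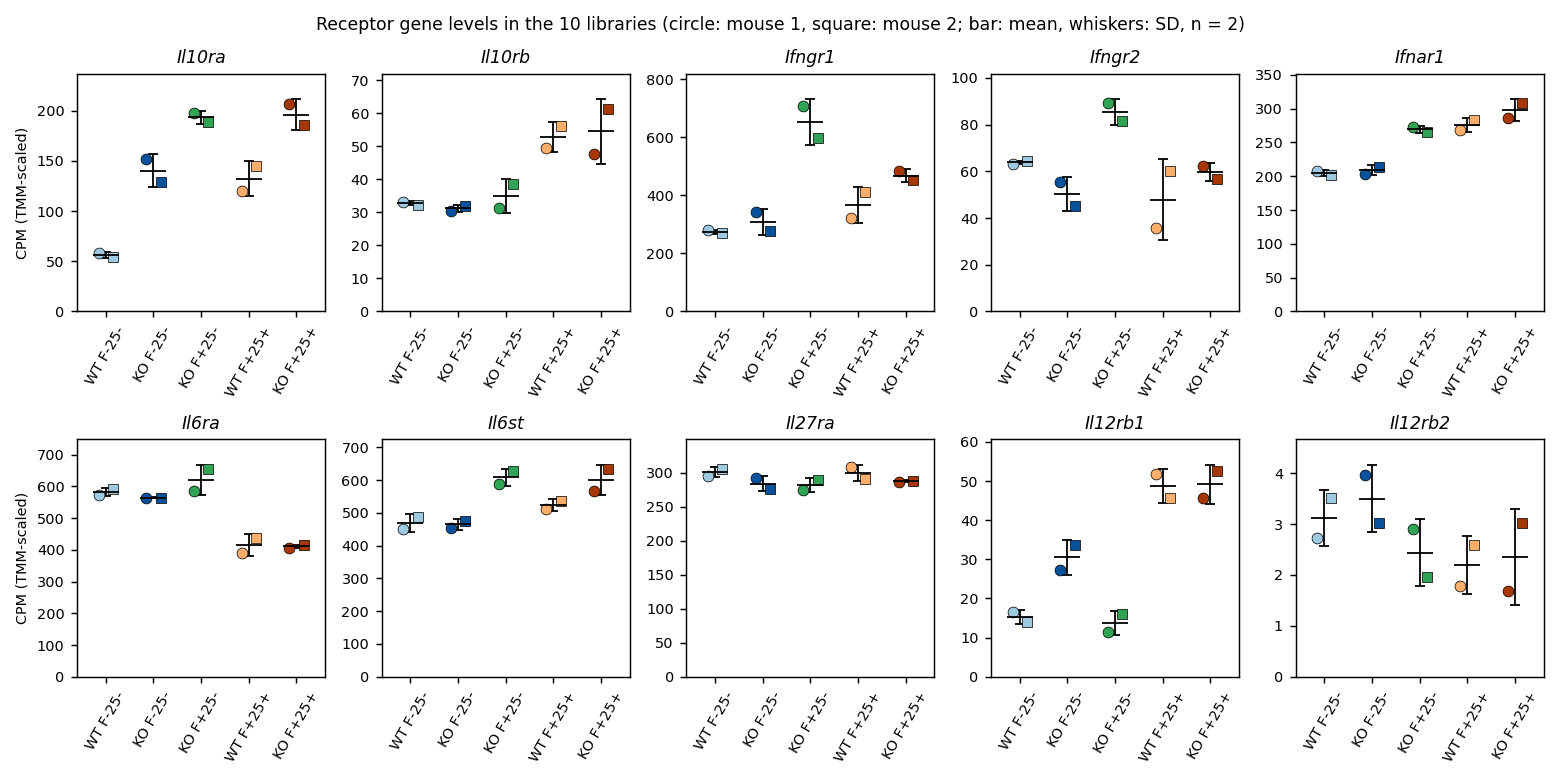
Levels of the 10 receptor genes in every library, in CPM scaled by TMM, from 0 (WT F-25- is WT FoxP3-CD25-, KO F+25- is KO FoxP3+CD25-, and so on). Circles are mouse 1 and squares mouse 2 of a genotype, the short bar is the mean and the whiskers the SD of 2 libraries. Il10ra is lowest in WT FoxP3-CD25- cells (57.98 and 53.87 CPM), Ifngr1 is highest in KO FoxP3+CD25- cells (708 and 598 CPM), and Il12rb1 is highest in the FoxP3+CD25+ libraries of both genotypes.

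Il10ra, the ligand-binding chain of the IL-10 receptor, was the member with the lowest p-value between KO and WT non-Tregs. It lies at chr9:45253837-45269149 on the minus strand of mm10, with 7 exon blocks of 3498 bases in all. WT FoxP3-CD25- cells had 57.98 and 53.87 CPM, KO FoxP3-CD25- cells 152 and 129 CPM, WT FoxP3+CD25+ cells 120 and 145 CPM, KO FoxP3+CD25+ cells 207 and 185 CPM, and KO FoxP3+CD25- cells 198 and 189 CPM. Both WT non-Treg libraries lay below all 8 others, while KO non-Tregs overlapped with WT Tregs, and KO FoxP3+CD25- cells with KO Tregs. The log2 fold change of KO over WT was 1.33 ± 0.13 (SE) in FoxP3-CD25- cells (FDR = 0.00483). This call was lost without WT FoxP3-CD25- replicate 1 (1.38, FDR = 0.0705), WT FoxP3-CD25- replicate 2 (1.29, FDR = 0.0922) or KO FoxP3-CD25- replicate 1 (1.21, FDR = 0.0726), and held without both libraries of WT mouse 1 (FDR = 0.0478). Over WT non-Tregs, KO FoxP3+CD25- cells were higher by 1.79 ± 0.13 (FDR = 0.00017), a call that held without each library in turn.

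Within genotypes, Il10ra was higher in Tregs than in non-Tregs by a log2 fold change of 1.24 ± 0.13 in WT (FDR = 0.000141) and of 0.48 ± 0.13 in KO (FDR = 0.0465). The KO call was lost without any 1 of its 4 libraries, with log2 fold changes of 0.37 to 0.60 and an FDR of up to 0.346. The difference between these contrasts, KO minus WT, was -0.76 ± 0.18 (FDR = 0.52), and it was called with the mouse as a block (-0.75, FDR = 0.0323). In Tregs the KO over WT value was 0.57 ± 0.13 with FDR = 0.922, and no KO library overlapped with a WT library. With 2 libraries a group, such a separation cannot give p below 0.333 in an exact permutation test. Over WT Tregs, KO FoxP3+CD25- cells were higher by 0.55 ± 0.13 (FDR = 0.0167), a call that was lost without WT FoxP3+CD25+ replicate 1 or either KO FoxP3+CD25- library (0.41 at the lowest, FDR up to 0.105). Over KO non-Tregs the value was 0.46 ± 0.13 (FDR = 0.121), which was called with the mouse block (0.47, FDR = 0.0167). On a log2 scale from 0 at WT non-Tregs to 1 at WT Tregs, the mean of Il10ra stood at 1.07 in KO FoxP3-CD25-, 1.45 in KO FoxP3+CD25- and 1.46 in KO FoxP3+CD25+ cells.

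Il10rb, the shared partner chain, was higher in the CD25+ than in the CD25- libraries of both genotypes. It lies at chr16:91406164-91425834 on the plus strand, and 569 of its exonic bases also belong to Gm21970. That gene lies on the same strand and had a count of 0 in every library. How reads in the shared bases were counted is not given in the sources used here. The level of Il10rb against other genes is therefore uncertain. The 4 FoxP3+CD25+ libraries had 47.6 to 61.3 CPM and the 6 CD25- libraries 30.4 to 38.6 CPM, with no overlap. The log2 fold change of Tregs over non-Tregs was 0.69 ± 0.15 in WT (FDR = 0.0142) and 0.81 ± 0.16 in KO (FDR = 0.0121). In KO FoxP3+CD25- cells it was lower than in KO Tregs, at -0.64 ± 0.16 (FDR = 0.0336), and lower than in WT Tregs, at -0.59 ± 0.16 (FDR = 0.034). Each of these 4 calls was lost when 1 of several libraries was left out: the WT one without either WT FoxP3-CD25- library (FDR up to 0.103), the KO one without KO FoxP3-CD25- replicate 1 or 2 or KO FoxP3+CD25+ replicate 2 (up to 0.142), and those of KO FoxP3+CD25- cells without either of their own libraries (up to 0.238 against KO Tregs and 0.218 against WT Tregs) or without replicate 2 of the FoxP3+CD25+ group they were set against (0.289 and 0.106). All fold changes kept their direction.

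Ifngr1, the ligand-binding chain of the interferon-gamma receptor, was highest in KO FoxP3+CD25- cells. It lies at chr10:19591949-19610229 on the plus strand. KO FoxP3+CD25- cells had 708 and 598 CPM, KO FoxP3+CD25+ cells 484 and 452 CPM, WT FoxP3+CD25+ cells 323 and 412 CPM, KO FoxP3-CD25- cells 341 and 278 CPM, and WT FoxP3-CD25- cells 279 and 269 CPM. Both KO FoxP3+CD25- libraries lay above all 8 others, KO Tregs came next, and WT Tregs and KO non-Tregs overlapped. For KO FoxP3+CD25- cells the log2 fold change was 1.08 ± 0.15 over KO non-Tregs (FDR = 0.00494), 1.25 ± 0.15 over WT non-Tregs (FDR = 0.00369) and 0.83 ± 0.15 over WT Tregs (FDR = 0.00389). Without KO FoxP3-CD25- replicate 2 the first FDR was 0.0661, and without WT FoxP3-CD25- replicate 1 the second was 0.0564. The call against WT FoxP3+CD25+ cells held without each library in turn, and had an FDR of 0.0511 without both libraries of WT mouse 1. Over KO FoxP3+CD25+ cells the log2 fold change was 0.48 ± 0.15 (FDR = 0.0826), and 0.47 with FDR = 0.00748 with the mouse block.

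The difference of Ifngr1 between Tregs and non-Tregs was smaller. It was 0.60 ± 0.15 in KO (FDR = 0.0355), a call lost without any 1 of its 4 libraries (0.45 to 0.75, FDR up to 0.287). It was 0.42 ± 0.15 in WT (FDR = 0.103, and FDR = 0.0126 with the mouse block). In Tregs the KO over WT value was 0.35 ± 0.15 with FDR = 1.

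Ifngr2, the signalling partner of IFNGR1, was also highest in KO FoxP3+CD25- cells, with 89.2 and 81.6 CPM. It lies at chr16:91547072-91565623 on the plus strand. WT FoxP3-CD25- cells had 63.4 and 64.4 CPM, KO FoxP3+CD25+ cells 62.4 and 56.9 CPM, KO FoxP3-CD25- cells 55.6 and 45.1 CPM, and WT FoxP3+CD25+ cells 35.7 and 60.1 CPM. The KO FoxP3+CD25- libraries again lay above all others, and the WT Treg libraries stood farther apart than those of any other group. Over WT Tregs the log2 fold change of KO FoxP3+CD25- cells was 0.83 ± 0.20 (FDR = 0.0227), and 0.50 (FDR = 0.0804) without WT FoxP3+CD25+ replicate 1, the library at 35.7 CPM. This call was also lost without KO FoxP3+CD25- replicate 1 (FDR = 0.115) or 2 (FDR = 0.0735). Over KO FoxP3-CD25- cells the log2 fold change was 0.77 ± 0.20 (FDR = 0.111), and with the mouse block 0.77 (FDR = 0.0104). Of 10 alternatives that leave out no single library, 6 called it, among them DESeq2 (FDR = 0.0257). Without each library in turn the log2 fold change was 0.62 to 0.92. Over KO FoxP3+CD25+ cells it was 0.52 ± 0.20 (FDR = 0.181), and with the mouse block 0.52 (FDR = 0.0341).

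Ifnar1, a chain of the type I interferon receptor, was higher in FoxP3+ than in FoxP3- libraries whatever their CD25 sort. It lies at chr16:91485238-91507441 on the plus strand. The 4 FoxP3+CD25+ libraries had 269 to 309 CPM, the KO FoxP3+CD25- libraries 273 and 265 CPM, and the 4 FoxP3-CD25- libraries 202 to 214 CPM. The 6 FoxP3+ libraries thus lay above the 4 FoxP3- libraries without overlap. The log2 fold change of Tregs over non-Tregs was 0.43 ± 0.09 in WT (FDR = 0.0128) and 0.51 ± 0.09 in KO (FDR = 0.00873). The WT call was lost without either WT FoxP3-CD25- library (FDR up to 0.104), and the KO call without KO FoxP3-CD25- replicate 1 or 2 or KO FoxP3+CD25+ replicate 2 (FDR up to 0.108). The value for KO FoxP3+CD25- cells was 0.37 ± 0.09 over KO non-Tregs (FDR = 0.0991), which was called with the mouse block (0.37, FDR = 0.0185), and 0.40 ± 0.09 over WT non-Tregs (FDR = 0.12).

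Il10rb, Ifnar1 and Ifngr2 are neighbours on chromosome 16, in the order Ifnar2, Il10rb, Ifnar1 and Ifngr2 on the same strand, with gaps of 574, 59403 and 39630 bases. Their levels did not follow the same order over the groups: Il10rb was highest in both FoxP3+CD25+ groups, Ifnar1 in all FoxP3+ groups, and Ifngr2 in KO FoxP3+CD25- cells. Ifnar2, the partner chain of IFNAR1 and no member of the 10, had mean levels of 81.4 to 105 CPM over the groups and was called in none of the 9 comparisons. Its levels were nevertheless split as those of Ifnar1 were. The FoxP3+ libraries had 97.3 to 111 CPM and the FoxP3- libraries 81.2 to 93.1 CPM, with no overlap. In WT Tregs over WT non-Tregs its log2 fold change was 0.35 ± 0.10 (FDR = 0.057).

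**Figure D2:**
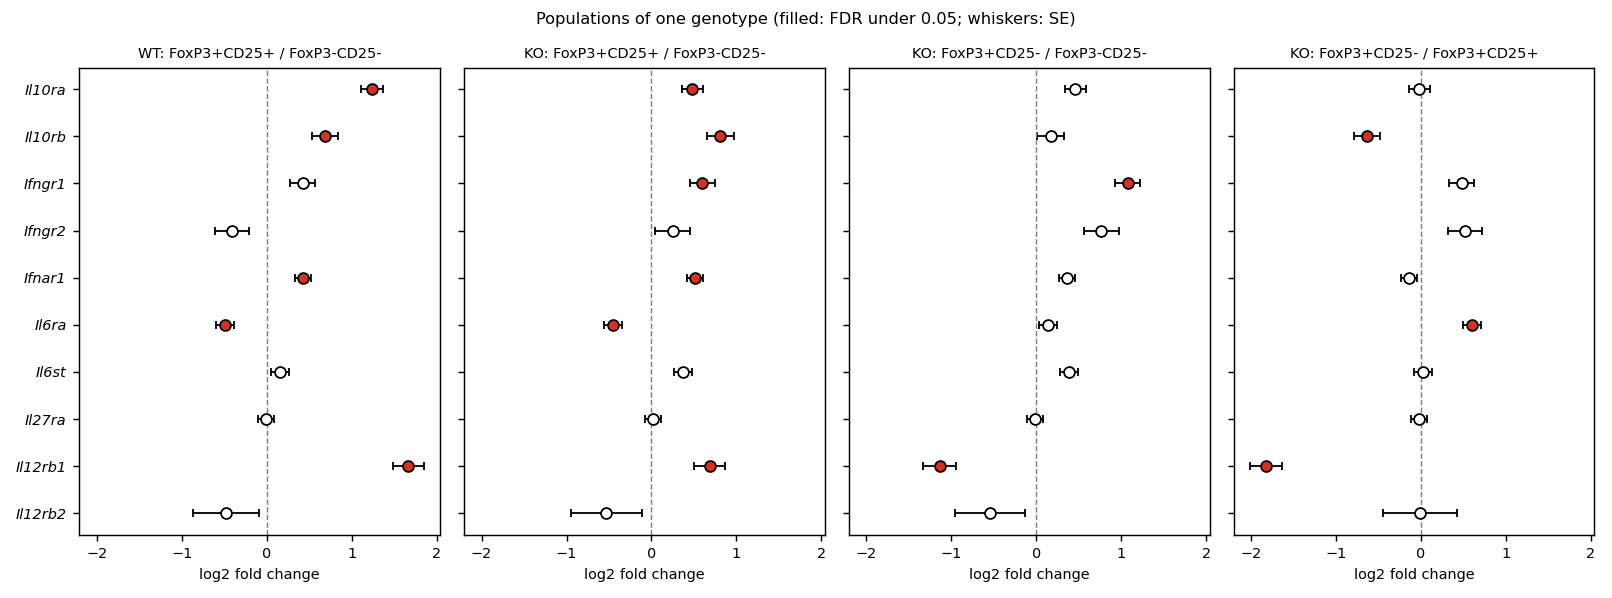
Log2 fold change of each receptor gene between populations of the same genotype, with its SE as whiskers; filled points have an FDR under 0.05 in edgeR's quasi-likelihood test and the dashed line marks 0. Il10ra is filled in the first 2 panels at 1.24 and 0.48, Ifngr1 stands farthest to the right in the third at 1.08, and Il12rb1 farthest to the left in the last 2 at -1.14 and -1.82.

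Il6ra, the IL-6-binding chain, was lower in FoxP3+CD25+ cells than in all CD25- cells. It lies at chr3:89864059-89913196 on the minus strand, and 242 of its exonic bases overlap the antisense gene Gm42809, which had 63 to 133 counts. The 4 FoxP3+CD25+ libraries had 390 to 438 CPM and the 6 CD25- libraries 562 to 654 CPM, with no overlap. The log2 fold change of Tregs over non-Tregs was -0.49 ± 0.11 in WT (FDR = 0.011) and -0.46 ± 0.11 in KO (FDR = 0.0265). The KO FoxP3+CD25- cells, with 586 and 654 CPM, were higher than KO Tregs by 0.60 ± 0.11 (FDR = 0.00594) and than WT Tregs by 0.58 ± 0.11 (FDR = 0.00445). The last call held without each library in turn (FDR up to 0.0481). The WT call was lost without WT FoxP3+CD25+ replicate 1 or WT FoxP3-CD25- replicate 2 (FDR up to 0.081), the KO Treg call without any of its 4 libraries (up to 0.173), and that against KO FoxP3+CD25+ cells without either of those libraries or KO FoxP3+CD25- replicate 2 (up to 0.0704).

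Il6st, which encodes the shared signal chain gp130, and Il27ra, the IL-27-binding chain, were called in no comparison. Il6st (chr13:112464070-112510086, plus strand) had 511 and 537 CPM in WT FoxP3+CD25+, 449 and 488 in WT FoxP3-CD25-, 567 and 633 in KO FoxP3+CD25+, 589 and 627 in KO FoxP3+CD25-, and 453 and 477 in KO FoxP3-CD25- cells. All KO FoxP3+ libraries lay above all KO and WT FoxP3- libraries, with log2 fold changes over KO FoxP3-CD25- cells of 0.37 ± 0.11 for KO FoxP3+CD25+ (FDR = 0.0738) and 0.39 ± 0.11 for KO FoxP3+CD25- cells (FDR = 0.122). With the mouse block both were called (0.37, FDR = 0.00587, and 0.39, FDR = 0.00885). Over WT non-Tregs the value for KO FoxP3+CD25- cells was 0.38 ± 0.11 (FDR = 0.203). Il27ra (chr8:84030294-84042589, minus strand) had 274 to 308 CPM over all 10 libraries, the narrowest range of the members relative to its level, and every pair of groups in the 8 comparisons of 2 groups gave an unadjusted p of 0.335 or more.

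Il12rb1, the p40-binding chain of the IL-12 and IL-23 receptors, gave the log2 fold change farthest from 0 among the 10 members and 8 comparisons of 2 groups. It lies at chr8:70808449-70821424 on the plus strand. WT FoxP3+CD25+ cells had 51.8 and 45.6 CPM, KO FoxP3+CD25+ cells 45.6 and 52.7 CPM, KO FoxP3-CD25- cells 27.3 and 33.7 CPM, WT FoxP3-CD25- cells 16.6 and 14.03 CPM, and KO FoxP3+CD25- cells 11.5 and 16.0 CPM. The FoxP3+CD25+ groups overlapped with each other and lay above the rest, KO non-Tregs stood in between, and KO FoxP3+CD25- cells overlapped with WT non-Tregs. Tregs exceeded non-Tregs by a log2 fold change of 1.66 ± 0.18 in WT (FDR = 0.000206). The value for KO FoxP3+CD25- cells was -1.82 ± 0.19 against KO Tregs (FDR = 0.000298) and against WT Tregs -1.81 ± 0.19 (FDR = 0.000174). These 3 calls held without each library in turn.

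In KO mice the difference of Il12rb1 between Tregs and non-Tregs was 0.68 ± 0.18 (FDR = 0.0478), and this call was lost without any 1 of its 4 libraries (0.54 to 0.85, FDR up to 0.314). Against KO non-Tregs, KO FoxP3+CD25- cells were lower, at -1.14 ± 0.20 (FDR = 0.0166), which was lost without either KO FoxP3+CD25- library or KO FoxP3-CD25- replicate 2 (-0.94 to -1.41, FDR up to 0.162). In non-Tregs the KO over WT value was 0.996 ± 0.19 with FDR = 0.0923, and DESeq2 and the edgeR likelihood ratio test called it. The change of the Treg against non-Treg difference between genotypes was -0.98 ± 0.25 (FDR = 0.554), and it was called with the mouse as a block (-0.98, FDR = 0.0229). On the scale from 0 at WT non-Tregs to 1 at WT Tregs, Il12rb1 stood at 0.59 in KO FoxP3-CD25-, -0.10 in KO FoxP3+CD25- and 1.01 in KO FoxP3+CD25+ cells. Cd44, an adhesion receptor raised on antigen-experienced T cells, was also lower there, with 148 and 157 CPM in KO FoxP3-CD25- and 17.9 and 16.1 CPM in KO FoxP3+CD25- cells, and its part in the level of Il12rb1 was not tested. In sorted bulk populations, fewer cells of a kind and less RNA per cell cannot be told apart.

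Il12rb2, the IL-12-specific chain, was near the limit of detection, with 11 to 34 counts and 1.68 to 3.97 CPM per library. It lies at chr6:67291318-67376188 on the minus strand, and 1519 of its exonic bases overlap Serbp1 on the opposite strand, which had 3294 to 7601 counts. The library kit did not mark the strand, so reads in the shared bases cannot be told apart and the level of Il12rb2 is uncertain. Its groups overlapped in 5 of the 8 comparisons of 2 groups and it was called in none, with SEs of 0.37 to 0.44 on the log2 scale, which does not show that its levels were alike.

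**Figure D3:**
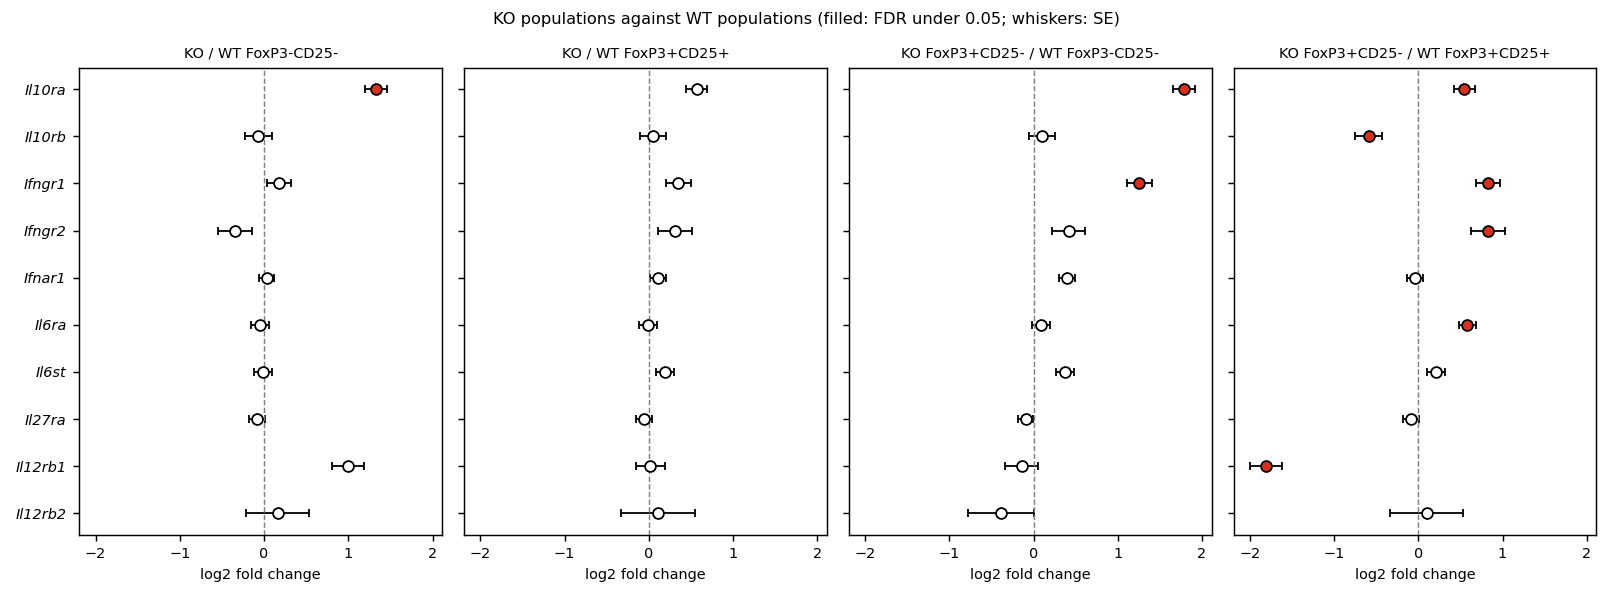
Log2 fold change of each receptor gene between a KO and a WT population, with its SE as whiskers; filled points have an FDR under 0.05 in edgeR's quasi-likelihood test and the dashed line marks 0. In the first panel only Il10ra is filled (1.33), in the second none, in the third Il10ra (1.79) and Ifngr1 (1.25), and in the last 6 genes, of which Il12rb1 (-1.81) and Il10rb (-0.59) lie on the left.

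Levels of different genes were compared as CPM per kilobase of annotated exon, which corrects for gene length only. On this scale Ifngr1 was the highest of the 10 in every group, at 96.2 in WT FoxP3-CD25- to 229 in KO FoxP3+CD25- cells, and Il12rb2 the lowest, at 0.579 to 0.923. Il27ra stood at 80.6 to 86.1. Il10rb had 8.18 to 14.3 and Ifngr2 12.7 to 22.7, so the partner chains of both receptors were lower than the ligand-binding chains in every group. The ratio of Il10ra to Il10rb per kilobase was 1.91 and 1.82 in WT FoxP3-CD25-, 2.64 and 2.81 in WT FoxP3+CD25+, 4.73 and 3.29 in KO FoxP3+CD25+, 5.43 and 4.41 in KO FoxP3-CD25-, and 6.91 and 5.32 in KO FoxP3+CD25- libraries. All 6 KO libraries had a higher ratio than all 4 WT libraries. The ratio of Ifngr1 to Ifngr2 was 5.83 and 5.52 in WT FoxP3-CD25- and 8.13 and 8.15 in KO FoxP3-CD25- cells, and 9.06 to 11.98 in the FoxP3+ libraries. That of Il6ra to Il6st was 1.28 to 1.64 in the CD25- libraries and 0.841 to 1.05 in the FoxP3+CD25+ libraries. These ratios are descriptions and were not tested.

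**Figure D4:**
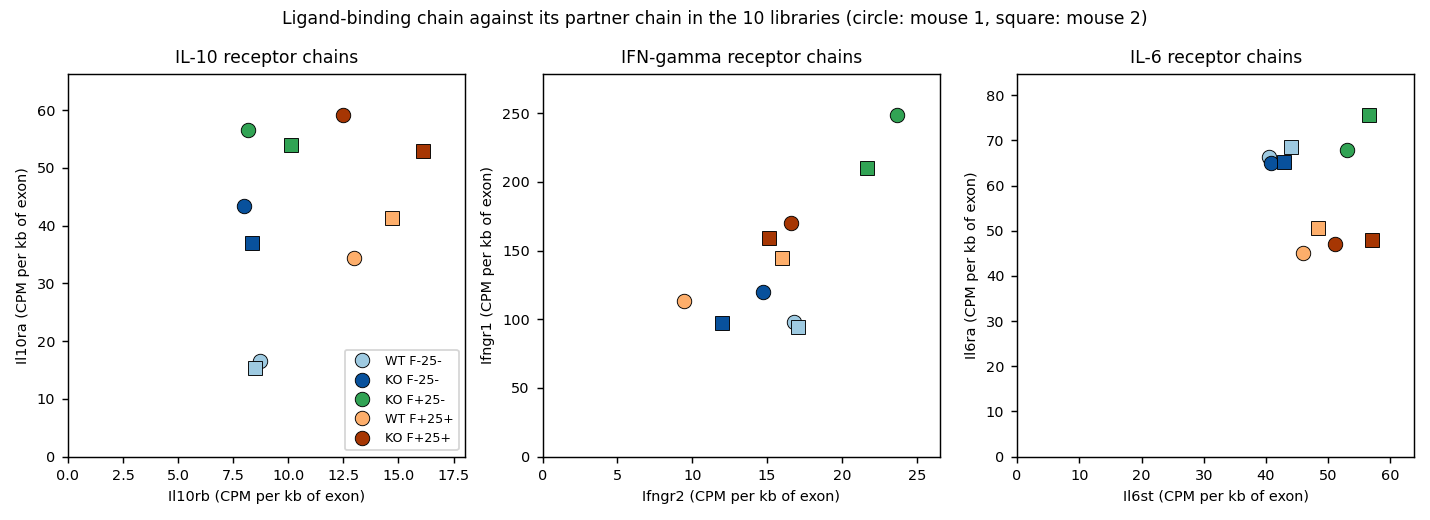
Ligand-binding chain (y axis) against its partner chain (x axis) in the 10 libraries, both in CPM per kilobase of exon from 0, for the IL-10, interferon-gamma and IL-6 receptors; circles are mouse 1 and squares mouse 2, and colours give the group as named in the key. In the first panel the KO FoxP3-CD25- libraries stand above the WT FoxP3-CD25- libraries at a like level of Il10rb, and in the second the KO FoxP3+CD25- libraries stand highest on both axes.

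Other genes of these pathways were taken as lists. Of 14 other receptor chains of the same families, 4 passed the filter, and none of these was called in any of the 9 comparisons by edgeR. Of 12 Janus kinase and STAT genes, 2 were higher in WT Tregs than in WT non-Tregs, where 10.9% of all genes were called. They were Stat5a, a transducer of IL-2 signals (0.65 ± 0.12, FDR = 0.00438), and Jak3, the kinase of the common gamma chain (0.51 ± 0.13, FDR = 0.0307). Stat5a alone was called in KO Tregs against KO non-Tregs (0.52 ± 0.12, FDR = 0.0254), and both were lower in KO FoxP3+CD25- than in WT FoxP3+CD25+ cells (-0.45 ± 0.12, FDR = 0.0334, and -0.48 ± 0.13, FDR = 0.0414). The other comparisons called none of the 12. Of 9 genes of feedback and inhibition, Cish, Socs2 and Socs1, which restrain cytokine receptors, were higher in Tregs of both genotypes than in non-Tregs. Cish had 278 and 274 CPM in WT and 316 and 256 CPM in KO Tregs and 28.7 to 56.9 CPM in all CD25- libraries, and it was lower in KO FoxP3+CD25- than in KO FoxP3+CD25+ cells by -2.48 ± 0.19 (FDR = 6.5e-05). Ptpn11, a phosphatase with a role in growth factor signals, was lower in KO FoxP3+CD25- than in KO FoxP3-CD25- cells (-1.02 ± 0.16, FDR = 0.00954), as it was in KO Tregs (-0.94 ± 0.16, FDR = 0.005). Against WT Tregs, KO FoxP3+CD25- cells had lower Cish (-2.43 ± 0.19, FDR = 4.4e-05) and Socs2 (-5.95 ± 0.63, FDR = 0.000174) and higher Ptpn6, the phosphatase SHP-1 (0.63 ± 0.16, FDR = 0.0309). No gene of this list was called in KO against WT cells of the same sort.

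Of 14 ligand genes, 6 passed the filter. Ifng, the ligand of IFNGR1, had 0.808 and 0.547 CPM in KO FoxP3+CD25- cells, against 27.1 and 26.3 CPM in KO FoxP3-CD25-, 23.4 and 10.6 CPM in WT FoxP3-CD25- and 4.73 to 8.06 CPM in the FoxP3+CD25+ libraries. It was lower there than in KO FoxP3-CD25- cells by -5.32 ± 0.50 on the log2 scale (FDR = 0.000605), in the population in which Ifngr1 was highest. Il10, the ligand of IL10RA, had 23.3 and 7.80 CPM in WT FoxP3+CD25+ and 13.4 and 7.34 CPM in KO FoxP3+CD25+ cells, which overlapped. Mean levels were 3.31 CPM in WT FoxP3-CD25-, 3.68 in KO FoxP3-CD25- and 1.57 in KO FoxP3+CD25- cells. In Tregs against non-Tregs Il10 was called higher in WT and was not called in KO, and Ifng was called lower in both genotypes. No ligand gene was called for the change of this contrast between genotypes. Il10 was lower in KO FoxP3+CD25- than in KO FoxP3+CD25+ cells (-2.81 ± 0.72, FDR = 0.04). Ebi3, the partner of p28 in IL-27, was higher in Tregs than in non-Tregs in WT (3.84 ± 0.49, FDR = 0.000543) and in KO (2.39 ± 0.49, FDR = 0.0147). Il10, Ebi3 and Ifng were also lower in KO FoxP3+CD25- cells than in WT Tregs, where Clcf1, a cytokine of the gp130 family, was higher (0.86 ± 0.20, FDR = 0.0179), and no ligand gene was called in KO against WT cells of the same sort.

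Of 12 genes of the interferon-gamma response, 1 was called in KO FoxP3+CD25- cells against KO non-Tregs, where 1.67% of all genes were called. The median log2 fold change was 0.41 over the 12 and 0.01 over all genes. The gene called was Irgm1, an interferon-inducible GTPase, with 237 and 261 CPM against 173 and 167 CPM (0.55 ± 0.11, FDR = 0.0317). It was also higher than in KO FoxP3+CD25+ (0.51 ± 0.11, FDR = 0.0147) and in WT FoxP3+CD25+ cells (0.61 ± 0.11, FDR = 0.00379). Gbp3, another interferon-inducible GTPase, moved the other way in these last comparisons, by -1.81 ± 0.31 (FDR = 0.00458) and -2.16 ± 0.31 (FDR = 0.00103), and Gbp7 was lower in the second (-0.72 ± 0.18, FDR = 0.025). In WT, 4 of the 12 were higher in Tregs than in non-Tregs and none lower (Gbp3, Gbp7, Gbp2 and Iigp1). In KO 3 of the 12 were higher (Gbp3, Gbp7 and Gbp2). Of all genes, 10.9% were called in WT and 6.34% in KO. The medians over the 12 in these Treg against non-Treg comparisons were 0.23 in WT and 0.41 in KO. Between KO FoxP3+CD25- and KO FoxP3+CD25+ cells the median was 0.049, so the median shift over KO non-Tregs was alike in both KO FoxP3+ groups. None of the 12 was called between KO and WT cells of the same sort or in KO FoxP3+CD25- cells against WT non-Tregs. Cxcr3 and Tbx21, markers of T helper 1 cells in the list of naive and memory genes, were lower with Cd44 in KO FoxP3+CD25- than in KO FoxP3-CD25- cells (Cxcr3 -3.34 ± 0.40, FDR = 0.00245, and Tbx21 -3.98 ± 0.49, FDR = 0.00277). They were the 3 called of 12 in that list here and against WT non-Tregs (1.67% and 0.768% of all genes). Tregs against non-Tregs gave 2 higher and 5 lower in WT (10.9% of all genes) and 1 higher and 6 lower in KO (6.34%). In WT these were led by lower Lef1 (-1.65 ± 0.15) and Tcf7 (-1.20 ± 0.12), factors of naive T cells, lower Il7r (-1.53 ± 0.18) and higher Klrg1 (5.11 ± 0.65). The same 4 were called in KO in the same directions. Cxcr3 and Tbx21 were also called lower in KO Tregs than in KO non-Tregs, so both KO FoxP3+ groups shared this. Mean levels in KO Tregs and KO non-Tregs were 26.1 and 113 CPM for Cxcr3, and 3.97 and 20.5 CPM for Tbx21. Against KO Tregs, KO FoxP3+CD25- cells gave 4 higher and 2 lower of the 12 (7.02% of all genes). Against WT Tregs they gave 5 higher and 4 lower (11.2%). KO against WT cells of the same sort gave none.

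The genes whose log2 CPM followed each member most closely over the 10 libraries were found by Pearson's r among all tested genes, as a description with no p-value, since libraries share groups and mice. Those closest to Il10ra were Rab3gap2 (0.952), Bmp7 (0.943) and Igsf8 (0.929). Those closest to Ifngr1 were Zfp120 (0.944), Zdhhc17 (0.917) and Irf9 (0.914), the last of which encodes a subunit of the factor that type I interferons activate. Those closest to Ifngr2 were Relt (0.972), Scoc (0.939) and Rab4b (0.936). Il12rb1 was followed by 4930558J18Rik (0.99), 2900026A02Rik (0.982) and Tnfrsf13b (0.981), and Ifnar1 by Gbp10 (0.977), Coro2a (0.976) and Cerk (0.962). Il6ra was followed by Gm11346 (0.985), Sema4a (0.981) and Klhl5 (0.978), and Il10rb by Gsta4 (0.972), D630039A03Rik (0.97) and Ctss (0.966). No member was among the 3 genes closest to another of these 7 members.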

How the data were processed

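RNA of sorted cells (total RNA per the labels, from which mRNA was purified per the study's methods) was made into libraries with a kit that does not mark the strand, and read at 50 bases. Alignment by the authors used HISAT2 2.1.0 and mm10, and HTSeq 0.11.1 (per the submitters' processing notes) gave the gene tallies; the annotation and strand setting are not given in the sources used here. The deposited files hold raw read counts for each gene symbol. HTSeq's tallies of unassigned reads were kept out of library sizes; reads on genes were 26.01% to 28.54% of the total.

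A single edgeR model with group means was fitted to all 10 libraries (edgeR version 4.0.16), after filterByExpr with a minimum count of 10 and TMM scaling. The newer quasi-likelihood method tested 9 comparisons, two-sided, with p-values adjusted by Benjamini-Hochberg and a call at FDR under 0.05. SE was derived from the log2 fold change and F. Scripts were tested on simulated data. The labels number the replicates without naming animals. The WT replicates differed in sex-linked genes and so came from different animals; for KO the spread behind the p-values may be partly technical. Deviations of same-numbered libraries correlated at 0.303 within WT and 0.421 to 0.445 within KO, which were read as pairs, and at -0.0114 to 0.114 across genotypes, where the number joins different mice.

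The members and lists were chosen with earlier results of these data known. Genes named beyond the 10 members and Satb1 are those called in a list and the 3 closest in log2 CPM. From a list all called genes were named where 5 or fewer, otherwise at most 4 of lowest p. Foxp3, Il2ra, Xist, Ifnar2, Hspa1a and Hspa1b fall outside this rule and were chosen after their values were seen. Positions come from GENCODE M21 and upstream windows from RefSeq. Alternatives were 2 other filters, 2 other scalings, DESeq2 (version 1.42.0), 2 other edgeR tests, the compared libraries alone, a block for mouse or number, WT mouse 1 left out, and each library left out.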

Additional observations from a re-analysis of the deposited data

Results flagged for a closer look

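Ifngr2 was flagged because its Treg against non-Treg difference pointed in opposite directions in the genotypes: in log2 CPM it was -0.82 and -0.10 in the WT mice and 0.17 and 0.33 in the KO mice. The difference, KO minus WT, was 0.6596 on the log2 scale and was tested: edgeR's quasi-likelihood test gave FDR = 0.985, and FDR = 0.211 with the mouse as a block. It was 0.33 without WT FoxP3+CD25+ replicate 1, the library with the lowest Ifngr2, and 1.07 (FDR = 0.045) without WT FoxP3+CD25+ replicate 2. The cause of the distance between these WT libraries was not tested. Groups of 2 were too small for the test of single libraries that stand apart.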

How the results depend on the processing

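Of 25 member results called, 7 were called without each library in turn, 14 under every other alternative and 5 under all; the 5 were Il10ra and Il12rb1 in WT Tregs against non-Tregs, Il10ra in KO FoxP3+CD25- against WT FoxP3-CD25- cells, and Il12rb1 in KO FoxP3+CD25- cells against both FoxP3+CD25+ groups. No log2 fold change of the 41 member results with unadjusted p under 0.05 changed sign; of 714 values for the other 49, 54 did, in 23 results, and 1 value was called (Ifngr2 in WT Tregs against non-Tregs without WT FoxP3+CD25+ replicate 2).

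Members called in WT Tregs against non-Tregs were 5, or 3 with the compared libraries alone, 2 without WT mouse 1, 6 with the mouse block and 2 to 6 without each library. For KO Tregs against non-Tregs they were 6, 7 with the mouse block or no filter, 4 with the legacy quasi-likelihood method, 5 to 6 with the other settings that leave out no single library, and 0 to 2 without each library (0 without KO FoxP3-CD25- replicate 1 or 2 or KO FoxP3+CD25+ replicate 2). For KO FoxP3+CD25- against KO FoxP3-CD25- they were 2, 6 with the mouse block, and 0 to 2 without each library; against KO FoxP3+CD25+ 3, 5 with the mouse block, and 1 to 2. For KO against WT FoxP3-CD25- they were 1, and 2 with no filter on low counts, with DESeq2, with the likelihood ratio test and with the number as a block, and 0 to 1 without each library. For KO FoxP3+CD25- against WT FoxP3-CD25- they were 2, 4 with the number block, and 1 to 2; against WT FoxP3+CD25+ 6, 2 with the compared libraries alone, 2 without WT mouse 1, and 3 to 5. The change of the contrast between genotypes called 0, 2 with the mouse block, and 0 to 1 without each library. The number block left the counts of KO against WT Tregs (0) and of KO FoxP3+CD25- cells against WT Tregs (6) as they were. Other settings moved a count in the remaining comparisons by at most 1 member. Where libraries were left out, fewer libraries set the spread. Calls over all genes moved with the settings too. With the mouse block they rose from 1504 to 2634 in WT Tregs against non-Tregs and from 874 to 1650 in KO. For KO FoxP3+CD25- cells they rose from 230 to 787 against KO FoxP3-CD25- and from 968 to 2090 against KO FoxP3+CD25+ cells. For the change of the contrast they rose from 0 to 149. The cause of the changed counts was not tested for any setting.

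Over all genes, calls between KO and WT FoxP3-CD25- cells were 20, with 14 to 143 under the alternatives that leave out no single library, and for KO FoxP3+CD25- against WT FoxP3-CD25- cells 106, with 42 to 306. For KO FoxP3+CD25- against KO FoxP3-CD25- cells they were 230, with 228 to 787; against KO FoxP3+CD25+ 968, with 959 to 2090; and against WT FoxP3+CD25+ 1548, with 926 to 2153. For Tregs against non-Tregs they were 1504 in WT, with 715 to 2634, and 874 in KO, with 837 to 1650. KO against WT FoxP3+CD25+ gave 1, with 0 to 11, and the change of the contrast 0, with 0 to 149. Without 1 library each, in the same order of comparisons, the counts were 0 to 4, 25 to 57, 30 to 172, 410 to 562, 790 to 1981, 828 to 2182, 396 to 441, 1 to 7 and 0 to 121. Il12rb2 had the fewest counts of the members (11 to 34), and the part of depth in its lack of calls was not tested.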
